A study of Mus musculus with 2 samples.

Results

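The estrogen-related receptors (ERRs), the NR4A receptors and the coregulators that work with them were described in the skeletal muscle of mice overexpressing retinoid X receptor γ (RXRγ). The set holds 10 genes, chosen by name: the NR4A receptors Nr4a1, Nr4a2 and Nr4a3, the ERRs Esrra, Esrrb and Esrrg, the coactivators Ppargc1a and Ppargc1b, and the corepressors Nrip1 and Ncor1. The platform annotation named 30 of the 45101 probe sets on the array for 9 of them, a probe set being several short oligonucleotides that read the same transcript. It named none for Ncor1, which was not analysed here. RNA came from the skeletal muscle of female C57BL6 mice at 4 months of age, either RXRγ mice, in which the human α-actin promoter drives the RXRγ transgene in skeletal muscle, or non-transgenic control mice. Several animals of a genotype gave RNA to 1 pool, which was read on 1 Affymetrix MG430 array. The design text and the sample labels give different numbers of animals per pool. The RXRγ mice were of 1 transgenic line, and the sources do not name the muscle for these arrays.

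NR4A receptors have no known classical hormone and are made as immediate early genes, switched on within a short time of a stimulus. In muscle they respond to exercise and to β-adrenergic signals through cyclic AMP. Nr4a1 and Nr4a2 can bind DNA with RXR as a partner, which Nr4a3 does not do. ERRs are active without a hormone. Their activity depends on PGC-1 coactivators (Ppargc1a and Ppargc1b), with which they drive genes of mitochondria and fatty acid oxidation in muscle, while RIP140, the product of Nrip1, and NCoR1 hold nuclear receptor targets down.

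Since 1 array was run per genotype, the values have no replicates and no error, the genotypes could not be compared by a test, and so few arrays limit the precision. Signals are the deposited linear array units, and ratios are log2 of the signal in RXRγ mice over that in control mice. A gene was measured when at least 1 of its probe sets was above 250 on the brighter array, the level the study's methods use, and its ratio is the mean over those probe sets. It was called higher or lower at a log2 ratio of 0.4 in either direction. By these rules 3780 genes were measured on the arrays, of which 16.8% were called higher in RXRγ mice and 20.1% lower, with a median log2 ratio of -0.04. Where a gene had several such probe sets (1213 genes), their ratios spanned 0.20 at the median and 0.54 at the 90th percentile. Both arrays had the same trimmed mean (100.0), and the transgene product checked the labels: Rxrg was 334.5 in the control pool and 9172.1 in the RXRγ pool.

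Of the 10 genes, 5 were measured. Nr4a1, Esrra and Ppargc1a were called higher in RXRγ mice and none was called lower, that is 3 of 5 against 16.8% of all genes measured for higher and 0 of 5 against 20.1% for lower. The study chose its own list of increased genes on these same arrays, so a gene called higher here or below is not independent evidence of that list. The 10 genes and the gene lists below were themselves chosen with earlier results of these data known. Their counts beside the shares of all genes are therefore a description and not a test. Each of the 3 lay close above the threshold. Their log2 ratios were 0.51 for Nr4a1, 0.46 for Esrra and 0.44 for Ppargc1a, and 12.9%, 14.8% and 15.3% of all genes measured had ratios at least as high. Ppargc1b and Nrip1 were near 0. At the level of single probe sets, all 6 that were above 250 on both arrays had the higher signal in RXRγ mice, as did 45.6% of all such probe sets. Among the 6, the probe sets of Ppargc1b and Nrip1 had log2 ratios of only 0.01 to 0.10. A further 2, both of Ppargc1a, exceeded 250 in RXRγ mice alone, so the filter itself fixed their direction. Of the 8, 3 were higher by at least 0.4, which 17.2% of all such probe sets above 250 on the brighter array reached, while 20.9% were lower by as much. The other 22 probe sets did not exceed 250 on either array, and of these 14 were brighter in RXRγ mice and 8 dimmer. The share over all such dim probe sets was not computed, so no shift is read from this count. Over all probe sets on the array, the median signal was 22.7 in the control pool and 24.3 in the RXRγ pool.

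**Figure D1:**
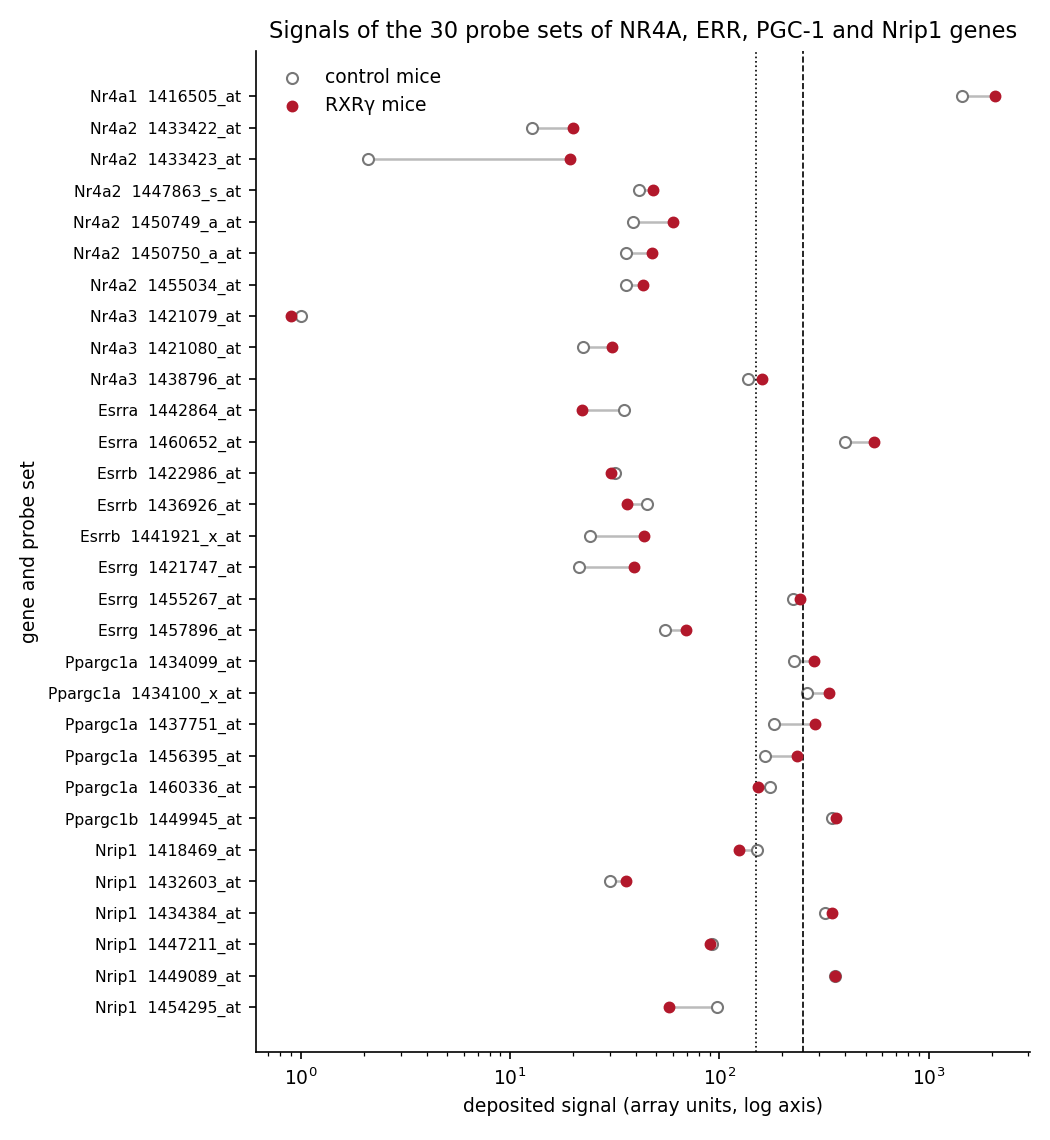
Deposited signal (array units, log axis) of each of the 30 probe sets named for the 9 genes, 1 line per probe set, in control mice (open symbols) and in RXRγ mice (red symbols), 1 array per genotype. The dashed line marks 250 and the dotted line 150; the brightest probe set, that of Nr4a1, runs from 1450.7 to 2066.8, and 17 probe sets lie at or under 150 on both arrays.

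**Figure D2:**
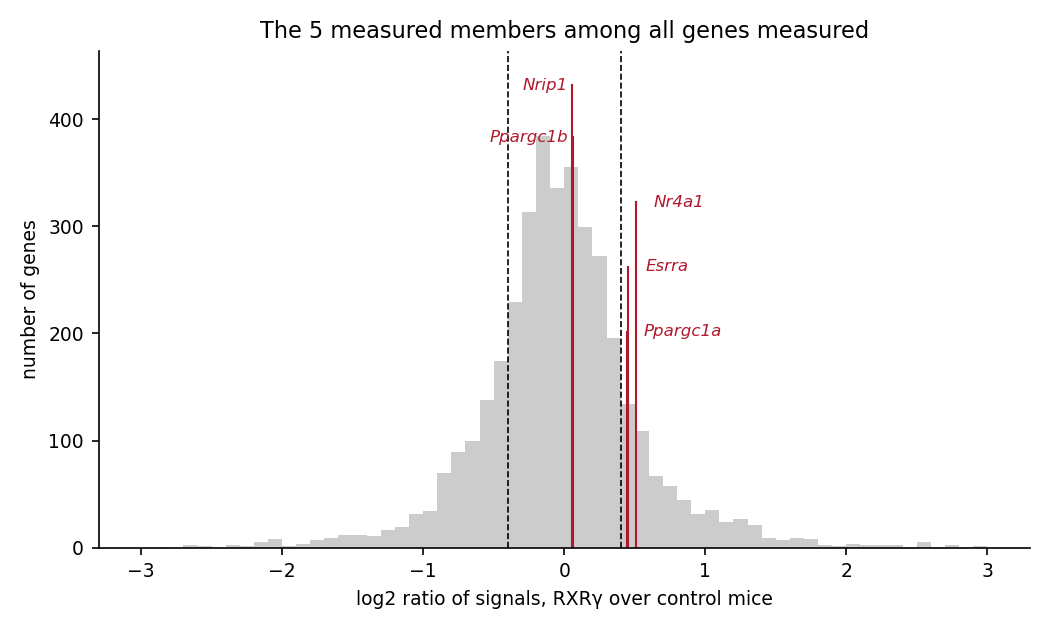
Number of genes by log2 ratio of RXRγ over control mice among the 3780 genes measured, in steps of 0.1, with the 5 measured receptors and coregulators marked in red. Dashed lines mark 0.4 in either direction and 26 genes beyond 3 on the log2 scale are not drawn; Nr4a1, Esrra and Ppargc1a stand just to the right of the upper line, and Ppargc1b and Nrip1 near the centre.

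Nr4a1, which encodes the orphan receptor Nur77, was measured by a single probe set, 1416505_at. Its signal was 1450.7 in the control pool and 2066.8 in the RXRγ pool, a 1.42-fold difference. Because a single probe set carries the value, no second reading of the transcript stands beside it on these arrays. Nr4a2, which encodes Nurr1, had 6 probe sets, and none of them exceeded 60.0 on either array. All 6 were brighter in RXRγ mice, the brightest at 38.8 in the control pool and 60.0 in the RXRγ pool (1450749_a_at). Because all of its signals were under 150, Nr4a2 is given no fold. Nr4a3, which encodes Nor1, had a probe set at 137.1 in the control pool and 159.1 in the RXRγ pool (1438796_at). Its other two probe sets were dimmer, one of them at 22.3 and 30.8 and the other at 1.0 and 0.9. Of the NR4A family, therefore, Nr4a1 alone reached the level needed for a call.

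The sequence before the start site is shown for the NR4A genes, for Ppargc1a and for Esrra. Cyclic AMP acts on promoters through the factor CREB, which binds the cyclic AMP response element. Whether it had a part in the signals of these genes was not tested. Each line holds the 250 bases before the start site on the gene's strand, from RefSeq promoter windows of GRCm38.p6. They lie at chr15:101266596-101266845 on the + strand for Nr4a1, chr2:57124004-57124253 on the - strand for Nr4a2, chr4:48045055-48045304 on the + strand for Nr4a3, chr5:51567726-51567975 on the - strand for Ppargc1a and chr19:6921809-6922058 on the - strand for Esrra. Capitals mark TGACG, the half-site of the cyclic AMP response element, or its reverse complement CGTCA.
Nr4a1: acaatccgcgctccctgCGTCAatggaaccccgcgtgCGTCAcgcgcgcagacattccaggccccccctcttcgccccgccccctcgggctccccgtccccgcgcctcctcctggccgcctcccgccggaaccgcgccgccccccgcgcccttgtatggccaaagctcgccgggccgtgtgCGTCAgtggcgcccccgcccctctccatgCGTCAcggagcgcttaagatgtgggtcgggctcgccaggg
Nr4a2: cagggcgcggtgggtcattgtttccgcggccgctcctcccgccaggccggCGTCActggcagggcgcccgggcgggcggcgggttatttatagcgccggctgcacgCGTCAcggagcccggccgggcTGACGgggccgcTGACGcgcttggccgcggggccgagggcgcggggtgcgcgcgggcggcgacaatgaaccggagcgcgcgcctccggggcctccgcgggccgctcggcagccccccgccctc
Nr4a3: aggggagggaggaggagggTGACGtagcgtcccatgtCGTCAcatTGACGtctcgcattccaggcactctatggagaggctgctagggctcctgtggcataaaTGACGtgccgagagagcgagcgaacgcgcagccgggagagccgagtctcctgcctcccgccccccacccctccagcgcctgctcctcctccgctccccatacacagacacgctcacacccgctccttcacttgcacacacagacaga
Ppargc1a: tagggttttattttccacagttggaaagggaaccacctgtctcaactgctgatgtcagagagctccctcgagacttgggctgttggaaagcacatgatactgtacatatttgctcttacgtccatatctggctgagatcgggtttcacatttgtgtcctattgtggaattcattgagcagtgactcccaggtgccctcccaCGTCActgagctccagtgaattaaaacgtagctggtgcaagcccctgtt
Esrra: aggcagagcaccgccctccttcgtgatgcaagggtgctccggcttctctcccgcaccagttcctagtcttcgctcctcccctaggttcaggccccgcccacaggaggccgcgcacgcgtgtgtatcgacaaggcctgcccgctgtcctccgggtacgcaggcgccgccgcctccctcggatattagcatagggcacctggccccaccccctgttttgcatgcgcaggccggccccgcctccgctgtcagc

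Each of the 3 NR4A windows held 4 half-sites, the Ppargc1a window held 1 and the Esrra window held none. Over all 32851 windows, several of which can belong to 1 gene, 17.8% held at least 1 half-site on either strand and 0.137%, or 45 windows, held 4 or more. In Nr4a1 the 4 matches began at -233, -213, -69 and -40 from the start site, all on the opposite strand. In Nr4a2 they began at -200, -144, -123 and -111, and in Nr4a3 at -231, -213, -205 and -147, on both strands. The match of Ppargc1a began at -49. The full element TGACGTCA, which holds the half-site on both strands, was in none of the 5 windows (1.55% of all windows), and neither was the NR4A site AAAGGTCA (1.34%) or the ERR site TCAAGGTCA (0.387%), which share the letters AAGGTCA. The Nr4a2 window held 1 match to the MEF2 site, which 2.92% of windows held on either strand. These matches describe letters in these windows, and binding was not measured.

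Esrra, which encodes ERRα, was measured by 1 of its 2 probe sets. That probe set, 1460652_at, had a signal of 400.6 in the control pool and 549.4 in the RXRγ pool, a 1.37-fold difference. The other, 1442864_at, was far below 150 on both arrays, at 35.1 in the control pool and 22.1 in the RXRγ pool. The 2 probe sets therefore differed in which array was brighter, and a mean over both without the signal filter gave a log2 ratio of -0.11. That mean gives signals of the dim probe set the same weight as those of the bright one. Esrrg, which encodes ERRγ, the ERR of oxidative muscle, came closest to the filter without passing it. Its brightest probe set, 1455267_at, was 225.9 in the control pool and 242.8 in the RXRγ pool, a log2 ratio of 0.10. Its other two probe sets were under 70 on both arrays. Esrrb, which encodes ERRβ, lay between 24.2 and 45.3 in control mice and between 30.5 and 43.9 in RXRγ mice over 3 probe sets, with 1 brighter and 2 dimmer in RXRγ mice. No difference in Esrrb can be read at these signals.

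Ppargc1a, which encodes the coactivator PGC-1α, had 5 probe sets, and they did not all point the same way. The probe set 1437751_at had 182.2 in the control pool and 285.2 in the RXRγ pool, a log2 ratio of 0.65. The other 2 probe sets above 250, designed from 1 sequence record and so not independent of each other, gave 0.33 (1434099_at, 227.3 and 284.8) and 0.36 (1434100_x_at, 262.0 and 336.0). Neither of that pair passed the threshold alone, and the mean of 0.44 over the 3 rested on 1437751_at. Of those not above 250, 1456395_at was 166.0 in the control pool and 234.1 in the RXRγ pool, while 1460336_at went the other way, at 174.1 and 153.6. With all 5 probe sets, which a filter of 150 admits, the log2 ratio was 0.33 and Ppargc1a was no longer called, which left 2 of 7 genes higher against 18.3% of all genes at that filter. A pseudocount of 32 (0.39), a signal above 250 on both arrays (0.36) and the brightest probe set alone (0.36) also ended the call. Each of these left 2 of 5 genes higher, where 15.5%, 12.1% and 16.9% of all genes were.

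Ppargc1b, which encodes PGC-1β, had 347.1 in the control pool and 362.2 in the RXRγ pool on its single probe set, a log2 ratio of 0.06. The corepressor gene Nrip1 had 6 probe sets. Its measured ones were 355.4 and 358.1 (1449089_at) and 320.9 and 344.3 (1434384_at) in control and RXRγ mice, log2 ratios of 0.01 and 0.10. The dimmer ones included 152.0 against 124.2 and 97.0 against 57.5, lower in RXRγ mice. Over all 6 probe sets 3 were brighter and 3 dimmer in RXRγ mice, and no call was made under any alternative that measured the gene.

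**Figure D3:**
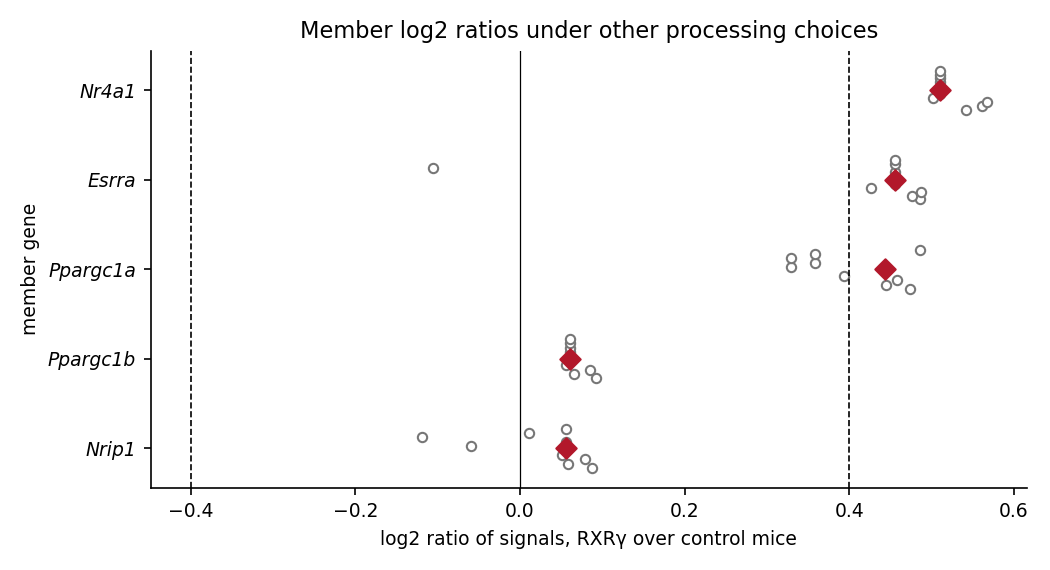
log2 ratio (RXRγ over control) for the 5 measured genes, as reported (red diamonds) and under the other processing choices (open circles, spread vertically for legibility), with dashed lines at 0.4 in either direction. Nr4a1 stays between 0.50 and 0.57, Ppargc1a falls on both sides of 0.4, and Esrra has 1 value below 0 (-0.11), without a signal filter.

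Genes that ERRs and PGC-1 coactivators are known to switch on were examined next, as a list of 16 genes of fuel use and one of 20 mitochondrial genes. Of the 14 fuel genes measured, none was called higher in RXRγ mice and 7 were called lower, against 16.8% and 20.1% of all genes measured. Their median log2 ratio was -0.41, and that of all genes measured -0.04. Pdk4, the kinase that restrains pyruvate dehydrogenase, was 5361.9 in the control pool and 1811.0 in the RXRγ pool (log2 ratio -1.57). Ucp3, the muscle uncoupling protein, was 451.5 in the control pool and under 150 in the RXRγ pool (88.5), with a log2 ratio of -1.59 when each signal under 150 was set to 150. Fndc5, the precursor of the secreted peptide irisin, was 259.3 and 96.0, at least 1.73-fold lower. The angiogenic factor Vegfa was 421.2 and 311.4, with -0.85 and -0.27 at its 2 probe sets. The remaining lower genes act in fatty acid oxidation: the acyl-CoA dehydrogenases Acadm (-0.45) and Acadvl (-0.56) and the carnitine carrier Slc25a20 (-0.53). Perm1, a muscle protein induced by PGC-1 and ERRs, had 741.2 in the control pool and 658.7 in the RXRγ pool (-0.17). The glucose transporter gene Slc2a4 (1741.6 and 2248.9, log2 ratio 0.37), the fatty acid transporter gene Cd36 (0.24) and the fatty acid binding protein gene Fabp3 (0.20) had ratios above 0 and were not called. Ucp3, Fndc5 and the Vegfa probe set with -0.85 exceeded 250 in control mice alone, which fixed their direction. The count depended on the filter: above 250 on both arrays, 4 of 12 fuel genes were lower (16.4% of all genes), and above 500 on the brighter array 4 of 11 were (21.2%). Median scaling and quantile normalization left 7 lower (18.6% and 19.1% of all genes) and loess centring 6 (18.5%), without Acadm. Under each of these scalings Slc2a4 was called higher (0.40, 0.42 and 0.43), as were 18.3%, 17.6% and 18.4% of all genes. In younger male mice, several per genotype, the study reported Slc2a4 mRNA unchanged and its protein, Glut4, not significantly different.

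The mitochondrial list went neither way. The 17 measured genes had a median log2 ratio of -0.03. Of them 2 were called higher and 2 lower, against 16.8% and 20.1% of all genes measured. Tfam, which packages mitochondrial DNA, had 476.7 in the control pool and 864.8 in the RXRγ pool (0.86), and Gabpa, a factor that activates respiratory genes, 255.3 and 345.4 (0.44). Mfn2, which fuses mitochondria and is a target of Esrra and Ppargc1a, had 1686.6 and 1117.1 (-0.59), and the mitochondrial transcription factor Tfb2m 891.8 and 599.4 (-0.57). Among the other 13, the respiratory genes Cycs, Cox4i1, Cox5b and Sdhb had log2 ratios of 0.02, 0.01, 0.04 and -0.03, and Atp5b had 0.15. These 13 ran from -0.37 (Mdh2) to 0.29 (Ckmt2). Quantile normalization made Ckmt2 called higher (0.41), which gave 3 higher, as were 17.6% of all genes.

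**Figure D4:**
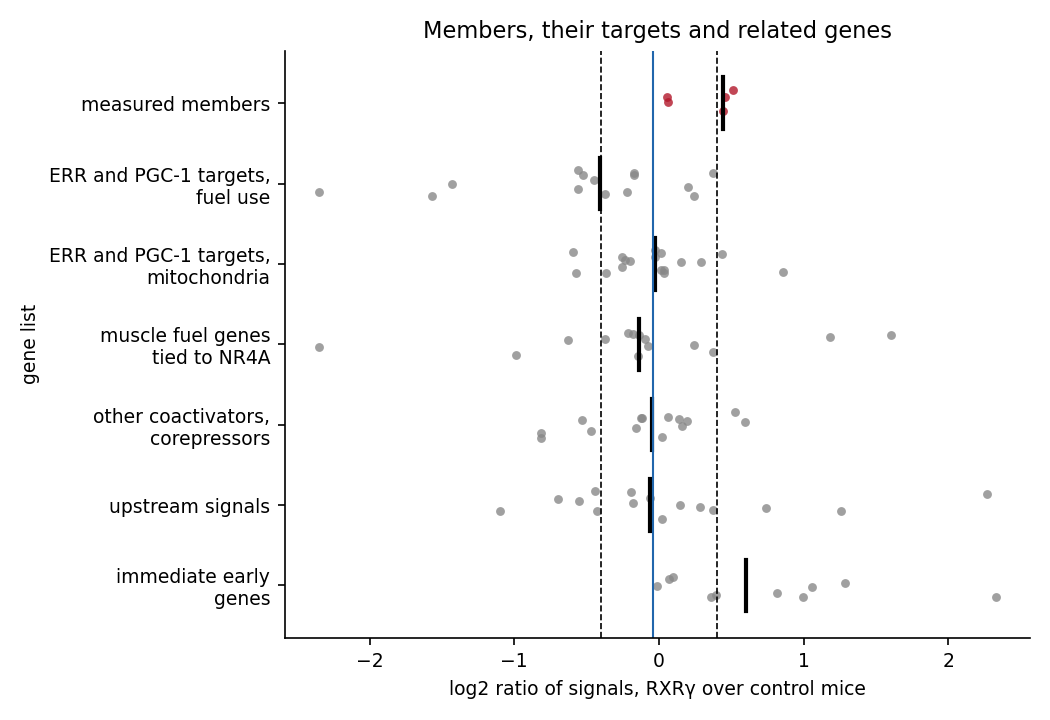
log2 ratio (RXRγ over control) for the measured members of 7 groups of genes, 1 point per gene, spread vertically for legibility, with the receptors and coregulators described here in red. Black bars are medians, dashed lines mark 0.4 in either direction and the blue line is the median of all genes measured (-0.04); the median lies at -0.41 for ERR and PGC-1 targets of fuel use and at 0.60 for immediate early genes.

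Genes of muscle fuel use tied to NR4A receptors also went both ways. The 14 measured genes included 2 called higher and 3 called lower, against 16.8% and 20.1% of all genes measured. Their median log2 ratio was -0.14. Fbp2, the muscle fructose bisphosphatase, had a log2 ratio of 1.60, and Bpgm, which encodes bisphosphoglycerate mutase, 1.18. The study lists both genes as increased on its arrays. It also reported increased Fbp2 mRNA by quantitative PCR, in several mice per genotype from the samples used for the arrays. Prkag3, a muscle subunit of AMP-activated protein kinase, had 765.5 in the control pool and 386.3 in the RXRγ pool (-0.99). Phka1, a subunit of phosphorylase kinase, had -0.63. Ucp3, Slc2a4 and Cd36, which the fuel list above also holds, are given there. Under median scaling, quantile normalization and loess centring Slc2a4 was called higher, which made 3 genes higher and 3 lower. Of all genes, 18.3%, 17.6% and 18.4% were higher under these scalings, and 18.6%, 19.1% and 18.5% lower. The glycolytic genes Pfkm, Eno3 and Pgam2 and the glycogen phosphorylase gene Pygm lay between -0.21 and -0.08.

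Of the immediate early genes, the class to which NR4A genes belong, some were brighter in RXRγ mice. Of 10 measured, 5 were called higher and none lower, against 16.8% higher among all genes measured, with a median log2 ratio of 0.60. Egr1, a zinc finger factor, had 416.4 in the control pool and 1015.6 in the RXRγ pool (1.29). Atf3, a stress-induced factor, was under 150 in control mice (71.8) and 360.6 in RXRγ mice, at least 2.40-fold higher. The growth inhibitor Btg2 had 171.2 and 355.7 (1.06), and Zfp36, which destabilises mRNA, had 152.0 and 303.4. Jun, part of the factor AP-1, was 626.3 and 1033.7 (0.81). The ratio of Nr4a1 was smaller than those of these 5 genes and larger than those of the other 5, among which Klf4 had 0.39, Fos, the partner of Jun, 0.36, Jund 0.09, Ccn1 0.07 and the phosphatase gene Dusp1 -0.02. All 9 immediate early genes that did not reach 250, Junb, Egr2 and Egr3 among them, had a higher brightest signal in RXRγ mice, 7 of them at or under 150 on both arrays. The share of all genes this dim with a higher brightest signal was not computed. Without a signal filter 12 of 19 were called higher and none lower, against 28.6% and 22.6% of all genes. Atf3, Btg2 and Zfp36 exceeded 250 in RXRγ mice alone, which fixed their direction, and when both arrays had to exceed 250, 2 of 6 were higher, against 12.1% of all genes. Under the scalings 6 (median), 5 (quantile) and 7 (loess) of 10 were higher, with Klf4 or Fos added, and none was lower. Of all genes, 18.3%, 17.6% and 18.4% were higher under these scalings.

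**Figure D5:**
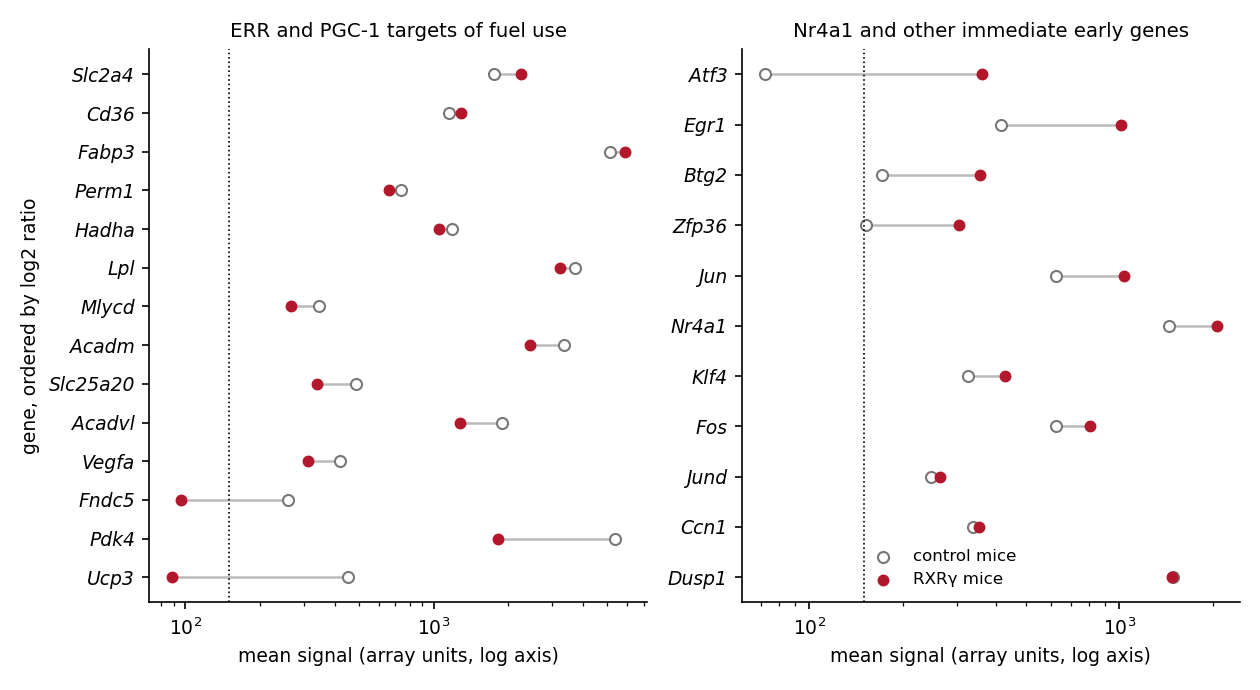
Mean signal (array units, log axis) in control mice (open symbols) and in RXRγ mice (red symbols) of the 14 measured ERR and PGC-1 targets of fuel use (left) and of Nr4a1 with the 10 measured immediate early genes (right), ordered by log2 ratio, 1 array per genotype. The dotted line marks 150; Ucp3 and Fndc5 lie under it in RXRγ mice and Atf3 in control mice, and Nr4a1 stands in the middle of the right panel.

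Signals that act on Ppargc1a and NR4A genes were mixed. Of 28 genes listed, 15 were measured, with a median log2 ratio of -0.06. Of these, 3 were higher and 5 were lower, against 16.8% and 20.1% of all genes measured. Rcan1, an inhibitor of the phosphatase calcineurin and itself induced by it, had 437.7 in the control pool and 2114.1 in the RXRγ pool (2.26), while the calcineurin subunit genes Ppp3ca and Ppp3cb had -0.45 and -0.43 and the subunit gene Ppp3r1 had 0.38 (1218.5 and 1581.2). Under all 3 other scalings Ppp3cb was not called (-0.40 to -0.37) and Ppp3r1 was called higher (0.41 to 0.43). Camk2d, a calmodulin-dependent kinase, had mean signals of 175.1 and 429.4, a log2 ratio of 1.22 when signals under 150 were set to 150, against -0.56 for Camk2a and -0.70 for Camk2b. Camk2d exceeded 250 in RXRγ mice alone and Camk2b in control mice alone, which fixed their direction. Prkaca, the catalytic subunit of the cyclic AMP-dependent kinase, had 601.7 and 1022.0 (0.74). Prkaa2, the muscle catalytic subunit of AMP-activated protein kinase, which activates PGC-1α, had 2209.8 and 1032.4 (-1.10). The gene for CREB itself, Creb1, did not reach 250.

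Other coactivators and corepressors of nuclear receptors did not move one way. Of 23 genes listed, 14 were measured, with a median log2 ratio of -0.05. Of these, 2 were called higher and 4 lower, against 16.8% and 20.1% of all genes measured. The coactivator gene Ncoa1 had 191.7 in the control pool and 287.6 in the RXRγ pool (0.59), and Tbl1x, a subunit of the NCoR corepressor complex, 218.3 and 314.2 (0.53). Tbl1xr1 and Hdac3, subunits of the same complex, were lower, at 362.1 against 206.2 (-0.81) and 298.0 against 206.5 (-0.53). Med1, a Mediator subunit that binds nuclear receptors, was 302.5 in the control pool and 171.5 in the RXRγ pool (-0.82), and the arginine methyltransferase gene Prmt1 had -0.47. All of these except Prmt1 exceeded 250 on 1 array alone, which fixed their direction. Above 250 on both arrays, none of 7 measured genes was higher and 1 was lower, against 12.1% and 16.4% of all genes. The RXR genes other than the transgene, Rxra and Rxrb, had log2 ratios of -0.51 and -0.75, with means above 250 in control mice alone.

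The labelled tissue was borne out by its markers: all 10 muscle fibre genes listed, Acta1 and Ckm among them, were above 250, and their summed signal was 128863.6 in the control pool and 112425.2 in the RXRγ pool. Of these 10, Ckm (-0.75) and Myh4 (-0.42) were called lower. Each call rested on 1 of 2 probe sets, with -1.39 and -0.11 for Ckm and -0.77 and -0.06 for Myh4. Markers of other cells were present as well. The summed signals in control and RXRγ mice were 8189.1 and 9207.3 for adipocyte markers (2 of 4 genes above 250), 10973.0 and 11598.5 for fibroblast markers (5 of 5) and 1525.5 and 1794.6 for macrophage markers (3 of 5). None of these measured markers of other cells was called higher or lower. Endothelial, red blood cell and brown adipocyte markers did not reach 250 on either array, and no marker was at 0 throughout. Slow-twitch fibre genes were listed after their values were seen, so a count of their calls is not a test. All 8, Myh7 and Tnnt1 among them, were called lower in RXRγ mice, against 20.1% of all genes measured. Their summed signal was 17249.8 in the control pool and 4845.7 in the RXRγ pool. Their part in the lower signals of the fuel targets of ERRs and PGC-1 was not tested. In pooled whole muscle, fewer cells of a type and less RNA per cell cannot be told apart.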

How the data were processed

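Skeletal muscle RNA was pooled within each genotype and hybridized in 1 colour to 1 array per genotype. The authors made the deposited signal intensity values with Affymetrix Gene Chip 3.1 software, from the signals of matched and mismatched oligonucleotides. The values are linear, none is below 0, and how they were scaled is not stated. The software's detection calls were not used. Probe sets were named through a single gene symbol of the platform annotation (34958 probe sets, 932 with several and 9211 not listed). Log2 ratios were computed without a pseudocount. Signals and log2 ratios of a gene are means over probe sets whose brighter array exceeded 250, and a signal under 150 gave a lower bound. Gene lists came from general knowledge, and 4 genes per list were to be named by largest change; further ones were chosen after their values were seen. The members and lists were chosen with earlier results of these data known. No p-values were computed. Steps were tested on simulated data.

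Alternatives were median scaling, quantile normalization and loess centring (limma 3.58.1, R 4.3.3, span 0.3), a pseudocount of 32, a floor of 150, filters of 150, 500, 250 on both arrays or none, the brightest probe set, leaving out probe sets ending in _x_at or _s_at, and a threshold of 1. Values were taken as moved at a factor of 1.5. Python 3.11.15, pandas 2.3.3, numpy 2.4.6 and matplotlib 3.10.9 were used. Member promoter windows on a chromosome that was left out were not used, which gave windows for 9 of the 10 genes. Letters were searched on both strands.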

Additional observations from a re-analysis of the deposited data

How the results depend on the processing

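Nr4a1 was called higher under every alternative that kept the threshold of 0.4, with log2 ratios from 0.50 to 0.57. Esrra was called in all of these except without a signal filter, where its dim probe set entered the mean and the log2 ratio was -0.11. Ppargc1a was not called with a pseudocount of 32 (0.39), a filter of 150 (0.33), no filter (0.33), a signal above 250 on both arrays (0.36) or the brightest probe set (0.36). At a threshold of 1 the number of these genes called higher was 0, and none was called lower under any alternative. Over all genes, 982 were higher with a filter of 150. The numbers higher and lower were 340 and 438 with a filter of 500, 371 and 501 above 250 on both arrays, 5208 and 4114 without a filter and 191 and 155 at a threshold of 1, against 636 and 760 as reported. Each list median moved by less than 1.5-fold. For fuel targets of ERRs and PGC-1 they ran from -0.53 to -0.22, for immediate early genes from 0.38 to 0.81. Scaling moved the median of all genes by under 0.1. Ppargc1a, Ppargc1b and Nrip1 did not pass a filter of 500. No paired analysis was possible because each genotype has 1 array, and for the same reason no replicate could be left out.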

Other observations

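Among the immediate early genes too dim for a ratio, Junb was 36.5 in the control pool and 124.3 in the RXRγ pool. For Egr2 the brightest signals were 16.7 and 79.1, for Egr3 31.4 and 88.3, and for Fosb 11.9 and 21.1, all under 150. Ier2, an early nuclear factor, went from 92.5 in control mice to 169.5 in RXRγ mice, and Klf2 from 168.6 to 232.7. No fold is given at these signals.

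Sirt1, a deacetylase that acts on PGC-1α, had 141.3 in the control pool and 188.0 in the RXRγ pool and did not reach 250, and Pprc1, a relative of the PGC-1 coactivators, had 100.4 and 99.1.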
